A study of Danio rerio with 8 samples.

Results

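The 116 genes described here encode the machinery of oxidative phosphorylation in zebrafish, 13 of them on the mitochondrial genome and 103 in the nucleus. They were picked by symbol from the 28599 named rows of the count table, with earlier results of these data known. The rule took the mitochondrial protein-coding genes (mt-) and the nuclear families nduf, sdh, uqcr, cyc1, cycs, cox4 to cox8 and atp5. Of 119 symbols that matched, cycsa, sdhda and ndufa4l2b were listed at 0 in all 8 libraries and were left out. The 3 symbols written in capitals in the table (COX5B, NDUFB1, NDUFAF8) were taken in with the rest.

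The mutant group, lf:YAP, is a transgenic line labelled as having hepatocyte-specific YAP activation (YAP is the transcriptional coactivator at the end of the Hippo pathway). It had 4 libraries of total RNA, each from a pool of 10 livers dissected at day 7 after fertilization, and was set against 4 such pools from WT larvae. Neither group was treated. No label names the promoter of the transgene or says whether the pools came from separate clutches. The p-values therefore reflect how far these pools differ, and part of that may be technical.

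Oxidative phosphorylation passes electrons from NADH (complex I) and succinate (complex II) through complex III, cytochrome c and complex IV to oxygen. The proton gradient built on the way drives ATP synthase, complex V. Each complex but II joins subunits made from both genomes. The mitochondrial genome is read as long transcripts from both strands that are then cut into single RNAs; of its protein-coding genes, mt-nd6 alone lies on the light strand and the others on the heavy strand. Hepatocytes are rich in mitochondria.

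Named genes drew 2668432 to 3170508 counts per library in lf:YAP and 2853543 to 3797709 in WT. One row, zgc:158463, handled here as ribosomal RNA, took 29.0% to 32.0% of them in lf:YAP and 16.9% to 36.5% in WT. The 2 large rows named after the mitochondrial genome record, which the files do not annotate further, took 18.7% to 26.6% in lf:YAP and 18.8% to 38.2% in WT. The yap1 row had 631, 1012, 299.6 and 1304 CPM in lf:YAP replicates 1 to 4, against 16.7 to 23.7 CPM in WT, a log2 fold change of 5.26 ± 0.45 (SE). CPM here is the count per 1000000 counts of a library after TMM scaling between libraries. All 20 hepatocyte markers were present, with a summed level of 36773 to 64041 CPM in lf:YAP and 55271 to 76800 CPM in WT. The 12 macrophage and leukocyte markers, none of which passed the filter on low counts, summed to 19.9995 to 45.7 CPM in lf:YAP and 10.3 to 14.8 CPM in WT, with the groups apart. Exocrine pancreas markers stood out in lf:YAP replicate 3, at 17920 CPM against 3539 to 4141 CPM in the other lf:YAP libraries, and in WT replicate 4, at 13717 CPM against 3210.1 to 9227 CPM in the other WT libraries. Of 8369 genes tested by edgeR's quasi-likelihood test, 929 were higher and 875 lower in lf:YAP at an adjusted p under 0.05, 21.6% in all. Such genes are referred to below as called; 11.1% of genes were called higher and 10.5% lower. Under scaling by total counts, with no TMM, the split was 1541 higher and 521 lower, and all genes then had a median of 0.31 on the log2 scale, in place of 0.01. The hepatocyte markers went both ways: with TMM scaling 2 of the 20 were called higher and 4 lower, 30% in all. The 2 higher were fabp10a and cp, and the 4 lower fgb, apoa2, rbp4 and fetub.

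Among the mitochondrial-genome genes, 6 of 13 were called lower in lf:YAP livers, against 10.5% of all genes, and 0 were called higher. All 13 passed the filter on low counts. They largely rose and fell together across libraries, as given below, so these counts are not of 13 independent results. With mt-nd6 as the exception, 12 of 13 log2 fold changes were negative, with a median of -0.86 beside 0.01 over all genes tested. At an unadjusted p under 0.05, which 34.8% of all genes reached, there were 11 lower and 0 higher. DESeq2 called 8 lower and 0 higher, and limma-voom 7 lower and 0 higher, beside 13% and 22.9% of all genes called. In the authors' deposited table, 2 of the 6, mt-cyb and mt-atp6, had an adjusted p under 0.05 (0.0281 and 0.0361). Summed, the 13 genes stood at 12644 ± 4128 CPM in lf:YAP and 21726 ± 6706 CPM in WT (SD, n = 4 each). The sums overlapped between the groups, at 8832 to 17547 CPM in lf:YAP and 12538 to 28646 CPM in WT. In tissue pools, fewer cells of a type, fewer mitochondria and less RNA in each cannot be told apart. Skeletal muscle and intestine markers were also lower in lf:YAP by their medians on the log2 scale. These were -1.18 over 28 tested skeletal muscle markers (8 called lower, 2 higher) and -1.13 over 14 tested intestine markers (4 lower, 1 higher). The median was -0.08 over 23 tested exocrine pancreas markers and 1.06 over 2 tested erythrocyte markers, with 0 called in either list. The summed muscle markers stood at 1672, 1259, 2446 and 1215 CPM in lf:YAP replicates 1 to 4, against 2165, 2818, 3033 and 3124 CPM in WT. A large part of these sums was 1 gene, eno3, which was not called (log2 fold change -0.29). It had 943, 795, 1194 and 988 CPM in lf:YAP, against 1203, 1101, 1425 and 1063 CPM in WT. The part of other tissues in the result was not tested.

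Complex III has a single mitochondrial-genome gene, and it was called lower. mt-cyb encodes cytochrome b, the electron-carrying core of that complex. Its level was 881, 617, 1151 and 529.8 CPM in lf:YAP replicates 1 to 4, against 1779, 1825, 1079 and 2143 CPM in WT replicates 1 to 4. WT replicate 3 lay within the lf:YAP range and the other WT libraries above it. The log2 fold change was -1.10 ± 0.27 (SE; adjusted p = 0.0121, edgeR quasi-likelihood test with Benjamini-Hochberg adjustment). It was the one mitochondrial-genome gene called under all 18 alternative settings, at adjusted p-values up to 0.0469.

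Both mitochondrial genes of complex V were called lower. mt-atp6, which forms part of the proton channel of ATP synthase, had 564, 336, 733 and 309 CPM in lf:YAP, against 1173, 1258, 652 and 1440.4 CPM in WT. Its log2 fold change, -1.22 ± 0.31, was the lowest of the 13 (adjusted p = 0.0171). mt-atp8, the small neighbour whose reading frame runs into that of mt-atp6, had 61.4, 36.1, 78.3 and 32.4 CPM in lf:YAP and 111, 109.8, 61.4 and 156 CPM in WT, with a log2 fold change of -1.09 ± 0.33 (adjusted p = 0.0414). Reads that cover both frames may have been assigned to either or left out, so these 2 rows are uncertain relative to each other.

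Of the 3 mitochondrial genes of complex IV, the oxidase that reduces oxygen, mt-co3 was called. It had 1768, 969, 1937 and 1124 CPM in lf:YAP, against 2875, 2636, 1713 and 3289 CPM in WT, a log2 fold change of -0.86 ± 0.27 (adjusted p = 0.0352). The catalytic subunit gene mt-co1 had 6662, 4588, 7856 and 4289.7 CPM in lf:YAP and 9825, 9564, 4693 and 12249 CPM in WT. Its log2 fold change of -0.64 had a 95% interval from -1.27 to 0.00 (adjusted p = 0.145). The copper-binding subunit gene mt-co2 stood at -0.74 ± 0.26 (adjusted p = 0.0619). In all 3 genes WT replicate 3 lay inside the lf:YAP range and the other WT libraries above it.

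Complex I takes 7 of the 13 genes, all for its membrane arm. mt-nd2 had 599.6, 317, 667 and 271 CPM in lf:YAP, against 1012, 1151, 570.1 and 1254 CPM in WT, a log2 fold change of -1.11 ± 0.33 (adjusted p = 0.0345). mt-nd5 had 727, 447, 918 and 363 CPM in lf:YAP and 1265, 1262, 693 and 1733 CPM in WT. At -1.01 ± 0.33 it stood at the edge of the call (adjusted p = 0.04996), and mt-nd4, at -0.92 ± 0.31, just outside it (0.0531). The other heavy-strand members were not called: mt-nd1 had -0.84 ± 0.31 (adjusted p = 0.0773), mt-nd3 -0.70 ± 0.25 (0.0611) and mt-nd4l -0.86 ± 0.33 (0.0884).

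**Figure D1:**
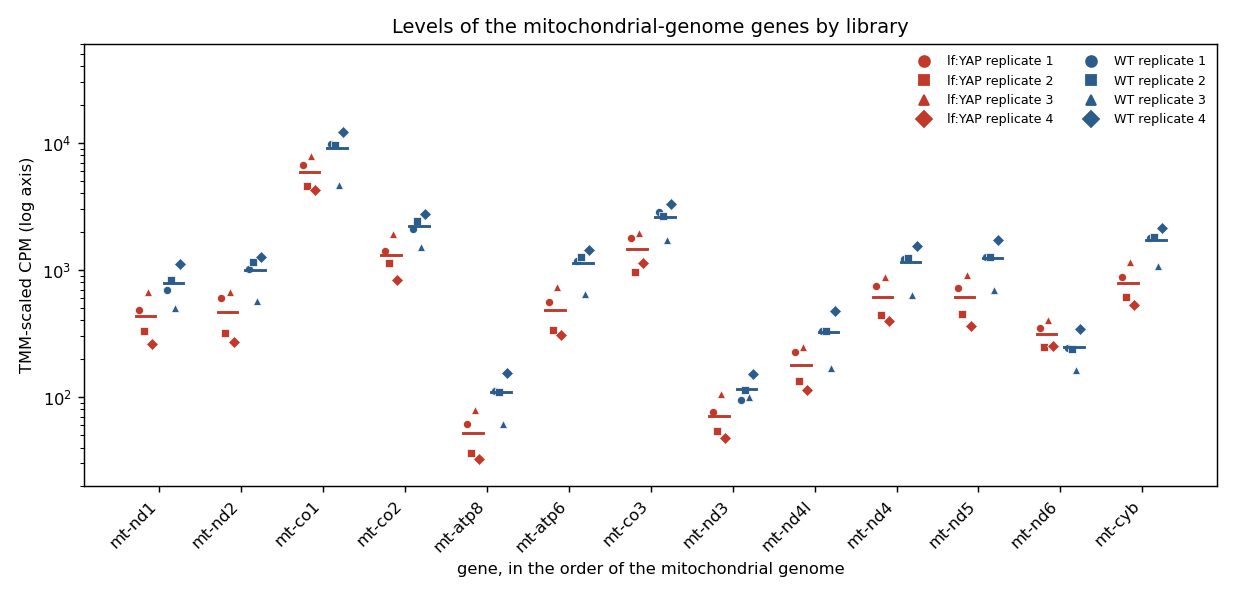
TMM-scaled CPM (log axis) of each mitochondrial-genome gene in every library, lf:YAP in red and WT in blue, in the order of the mitochondrial genome; marker shapes give the replicate and bars the group mean. For 11 of the 13 genes all lf:YAP libraries lie below WT replicates 1, 2 and 4, while WT replicate 3 lies among the lf:YAP libraries.

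The libraries within each group did not sit together. WT replicate 3 was the lowest WT library for 12 of the 13 genes and lay below the highest lf:YAP library for all 13. The groups overlapped for every gene. For mt-nd6 the overlap came from WT replicate 4, at 341 CPM, above lf:YAP replicates 2 and 4, at 248 and 254 CPM. WT replicate 4 was the highest WT library for all 13. In lf:YAP, replicate 3 was the highest for all 13 and replicate 4 the lowest for 11, in TMM-scaled CPM. The lead of lf:YAP replicate 3 depended on the scaling. As a percent of counts with no TMM, the 13 genes together took 1.519% in lf:YAP replicate 1 and 1.526% in lf:YAP replicate 3. The ribosomal RNA row moved the other way in WT, with 36.5% of counts in replicate 3 and 16.9% in replicate 4. With ribosomal RNA and mitochondrial-genome rows left out of the scaling, the same 6 mitochondrial-genome genes were called lower, beside 21.6% of all genes. As a percent of counts without that row and the large mitochondrial record rows, the 13 genes took 2.42% in WT replicate 3. The other WT libraries had 4.55% to 6.13%, and lf:YAP 2.28% to 3.55%. The part of that row in the result was not otherwise tested. Across all genes, the groups did not overlap for 11.3% with lf:YAP below and 12.4% with lf:YAP above.

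The number of mitochondrial-genome genes called lower depended on single libraries, as did the share of all genes called. It was 11 without WT replicate 3 and 10 without lf:YAP replicate 3, in place of 6. It was 4 without lf:YAP replicate 1, and 1 without lf:YAP replicate 2. Leaving out lf:YAP replicate 4, or WT replicate 1, 2 or 4, gave 2. Without both libraries rich in pancreas transcripts, WT replicate 4 and lf:YAP replicate 3, it was 10. Of all genes, 28.2% were called without lf:YAP replicate 3 and 26.9% without both, against 21.6% in the main fit. The share was 16.5% without WT replicate 3, 18.2% and 15.2% without lf:YAP replicates 1 and 2, and 16.1% to 19.2% in the fits with 2. The median of the mitochondrial-genome genes less that of all genes stayed between -1.13 and -0.74, against -0.87 in the main fit. In each of these fits the 12 heavy-strand genes kept a negative log2 fold change and mt-nd6 a positive one.

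mt-nd6, the light-strand gene for a membrane-arm subunit of complex I, was not called. It had 352, 248, 404 and 254 CPM in lf:YAP, against 242, 239, 163 and 341 CPM in WT. The log2 fold change was 0.35 with a 95% interval from -0.16 to 0.86 (adjusted p = 0.322). Scaling by total counts alone made it a call, higher at 0.59 (adjusted p = 0.0466). Its share of the summed counts of the 13 genes, which does not depend on scaling between libraries, was 2.42%, 2.57%, 2.30% and 2.87% in lf:YAP, against 1.063%, 1.039%, 1.304% and 1.191% in WT. The groups did not overlap, and WT replicate 3 sided here with the other WT libraries. This was not particular to mt-nd6. The share of mt-co1 was also higher in every lf:YAP library, at 44.8% to 48.6% against 37.4% to 43.3% in WT. The shares of mt-nd2, mt-atp8, mt-atp6, mt-nd5 and mt-cyb were lower in every lf:YAP library. For mt-cyb they were 6.00% to 6.56% in lf:YAP and 7.48% to 8.61% in WT. The shares of the remaining genes overlapped between the groups.

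The ratio of mt-nd6 to each other mitochondrial-genome gene within libraries is given as a description, since it was chosen after the shares above had been seen. For mt-nd5, the neighbouring gene on the opposite strand, the ratio of counts was 0.44 to 0.699 in lf:YAP and 0.189 to 0.236 in WT. The log2 difference was smallest against mt-co1, at 0.97, and largest against mt-atp6, at 1.62. All 12 ratios were higher in every lf:YAP library than in every WT library. They share the mt-nd6 counts and are not independent of each other or of the share. No source used here gives the strand setting of the counting, so reads of mt-nd6 and reads antisense to it cannot be told apart.

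**Figure D2:**
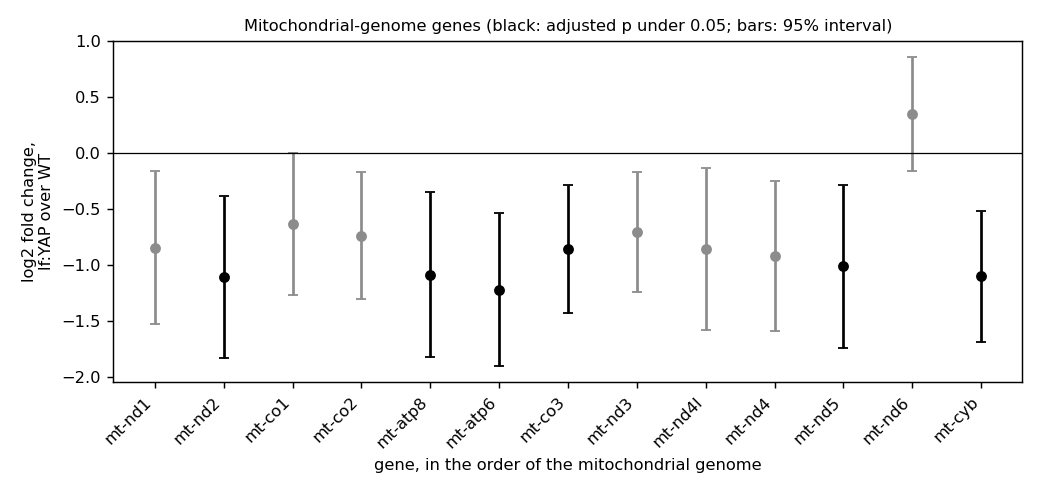
Log2 fold change (lf:YAP over WT) for the 13 mitochondrial-genome genes in the order of the mitochondrial genome, with 95% intervals; black points have an adjusted p under 0.05. mt-nd6 is the one point above 0, at 0.35, between mt-nd5 at -1.01 and mt-cyb at -1.10.

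The 2 large unannotated rows of the mitochondrial genome record were not called. Their log2 fold changes were -0.56 ± 0.26 (adjusted p = 0.151) and -0.56 ± 0.30 (adjusted p = 0.199), and in both the groups overlapped.

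Few nuclear genes of oxidative phosphorylation were called. Of the 103, 84 passed the filter on low counts. The other 19 had 2 to 71 counts over all 8 libraries, among them 7 of the 11 assembly factors and the isoform genes cox4i2 and cox7a1. Of the 84, 1 was called higher and 4 lower, 5.95%, against 21.6% of all genes tested. Of these 5 calls, those of ndufaf2, sdhb, cox6a2 and cox8b also had an adjusted p under 0.05 in the authors' deposited table. The median over the 78 tested subunit genes was -0.16, and 69 of them lay within 0.5 of 0 on the log2 scale. For 66 of the 78 the 95% interval of the log2 fold change lay within 1 on either side of 0, which is within 2-fold; for the others a change of that size is not excluded by these data. With total counts alone the subunit median was 0.13, which is -0.18 relative to all genes, as it was -0.17 with TMM scaling.

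**Figure D3:**
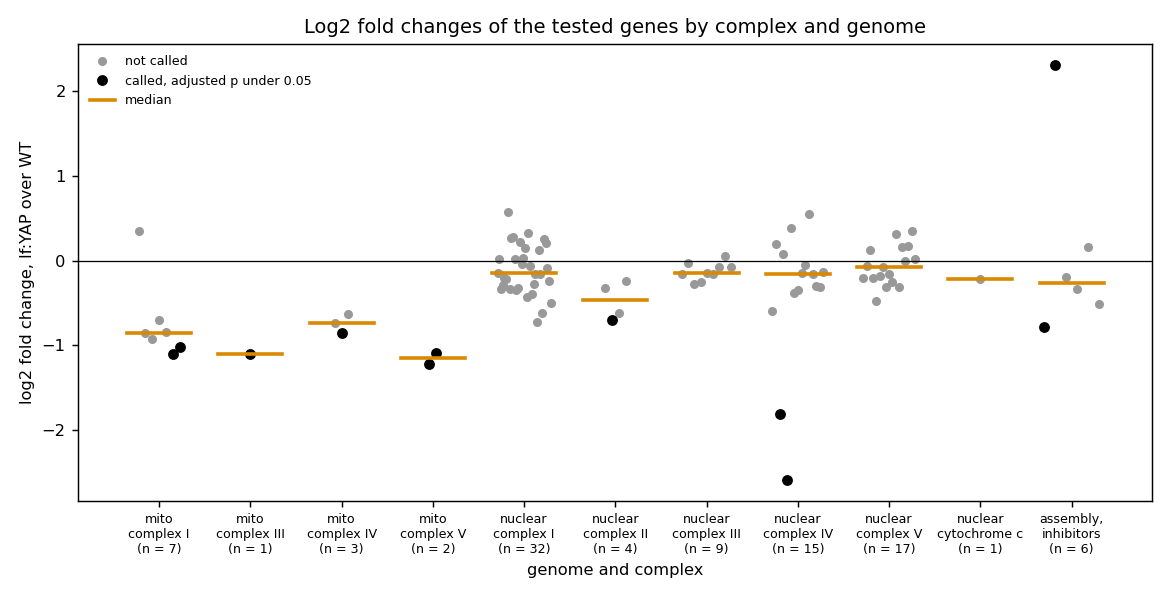
Log2 fold change (lf:YAP over WT) for each tested gene, by genome and complex, with medians in orange and called genes in black. The medians of the mitochondrial-genome genes lie between -1.15 and -0.74, and those of nuclear subunits between -0.47 and -0.08.

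The balance of the genomes was compared within libraries, as a description with no test. Counts of the 13 mitochondrial-genome genes exceeded those of the 103 nuclear genes by 7.64, 5.81, 7.33 and 4.76 times in lf:YAP replicates 1 to 4, against 10.56, 11.73, 5.87 and 13.002 times in WT. The WT library at 5.87, replicate 3, lay inside the lf:YAP range. The nuclear genes took 0.199% to 0.237% of counts in lf:YAP and 0.178% to 0.211% in WT. The mitochondrial genes took 1.13% to 1.53% in lf:YAP and 1.08% to 2.75% in WT. In lf:YAP the 2 libraries with most yap1, replicates 4 and 2, had the lowest ratios, 4.76 and 5.81; with 4 libraries this is a description only.

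**Figure D4:**
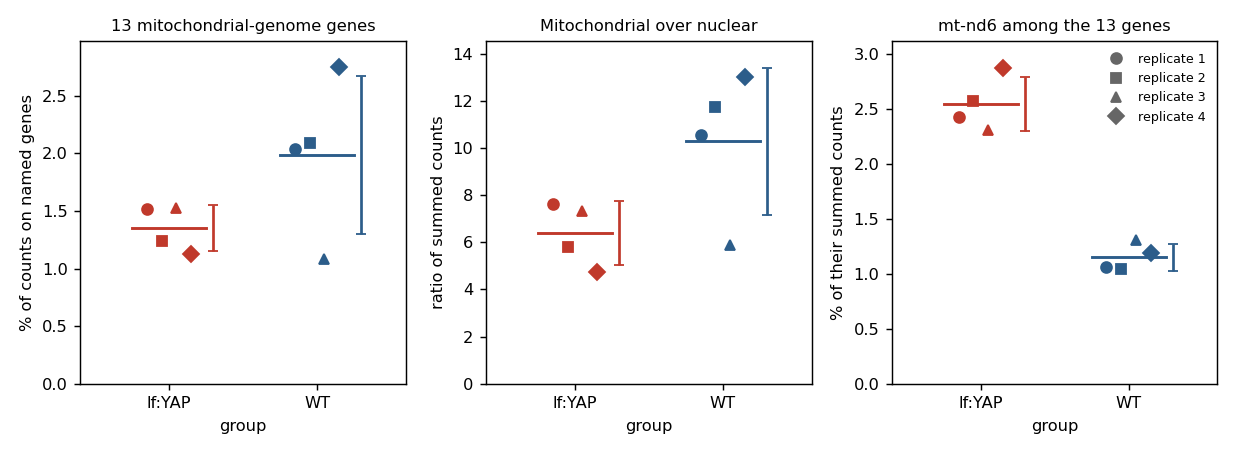
Left, percent of counts on the 13 mitochondrial-genome genes; middle, their summed counts over those of the nuclear genes; right, mt-nd6 as a percent of the 13. Points are libraries with lf:YAP on the left of each panel, horizontal lines are means and bars SD (n = 4 each); the groups overlap in the left and middle panels and are apart in the right one, at 2.30% to 2.87% in lf:YAP and 1.039% to 1.304% in WT.

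In complex I, 0 of 32 tested nuclear subunit genes were called by edgeR, 0 of 37 by DESeq2 and 0 of 32 by limma-voom. Of all genes, these tools called 21.6%, 13% and 22.9%. In DESeq2, 0 of the subunit genes had an unadjusted p under 0.05. In edgeR, 34.8% of all genes reached that level, and of the subunit genes 1 was higher and 2 were lower. The higher one, ndufa10, an accessory subunit, had 13.2 ± 4.03 CPM in lf:YAP and 8.99 ± 1.69 CPM in WT (SD, n = 4 each; adjusted p = 0.119). ndufv1, which carries the NADH-binding site, had 41.9 ± 4.46 CPM in lf:YAP and 52.8 ± 3.81 CPM in WT, with all lf:YAP libraries below all WT ones, and a log2 fold change of -0.33 ± 0.15 (adjusted p = 0.122). Summed over the 38 nuclear subunit genes, complex I stood at 431 ± 65.8 CPM in lf:YAP and 463 ± 28.0 CPM in WT (SD, n = 4 each).

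The nuclear calls in complex I were in its assembly factors, which help build the complex but are not part of it. ndufaf2 had 15.8, 12.96, 19.9995 and 10.1 CPM in lf:YAP, against 2.67, 1.91, 2.85 and 3.84 CPM in WT. Every lf:YAP library was above every WT one, and the gene rose 4.97-fold, a log2 fold change of 2.31 ± 0.30 (adjusted p = 0.000257, edgeR quasi-likelihood test). ndufaf1, of the assembly complex for the membrane arm, had 6.14 ± 1.71 CPM in lf:YAP and 10.6 ± 2.52 CPM in WT, with overlapping groups and a log2 fold change of -0.79 ± 0.26 (adjusted p = 0.0453). The call was lost under 12 of 18 alternatives, at adjusted p-values up to 0.243. The other tested assembly factors were ndufaf5 at -0.19 ± 0.31 and the complex II factor sdhaf2 at -0.34 ± 0.22, neither called.

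Complex II, the entry point from succinate and the complex with no mitochondrial-genome subunit, had 1 of 4 tested genes called. That is 25%, near the 21.6% of all genes. sdhb, the iron-sulfur subunit, had 19.0, 18.0, 21.3 and 24.7 CPM in lf:YAP, against 34.3, 32.4, 35.4 and 33.5 CPM in WT. The groups were apart, and the log2 fold change was -0.70 ± 0.16 (adjusted p = 0.00701). Scaled by total counts alone, it stood at -0.40 and was not called (adjusted p = 0.206). The flavoprotein gene sdha had -0.24 ± 0.18, and the membrane anchor genes sdhc and sdhdb had -0.32 ± 0.29 and -0.61 ± 0.32, none called.

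For complex III, 0 of 9 tested nuclear genes were called by edgeR, DESeq2 or limma-voom, beside 21.6%, 13% and 22.9% of all genes. In edgeR, 0 of the 9 had an unadjusted p under 0.05, beside 34.8% of all genes. The log2 fold changes of the 9 ran from -0.28 to 0.06. The Rieske iron-sulfur subunit gene uqcrfs1 had 31.4 ± 8.43 CPM in lf:YAP and 37.6 ± 4.67 CPM in WT (SD, n = 4 each), and the cytochrome c1 gene cyc1 had 32.6 ± 4.28 CPM in lf:YAP and 33.1 ± 3.05 CPM in WT. The cyc1 interval on the log2 scale ran from -0.36 to 0.32, while the interval of mt-cyb, its partner in the same complex, ran from -1.69 to -0.51. The core genes uqcrc1 and uqcrc2b stood at -0.16 and -0.25, and uqcrb at 0.06. The soluble carrier cytochrome c was measured through cycsb, at -0.22 ± 0.20 (adjusted p = 0.473).

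In complex IV, 2 of 15 tested nuclear genes were called by edgeR, 13.3% against 21.6% of all genes. Both were lower, and both are isoforms that mammals use mainly in heart and skeletal muscle. DESeq2 called the same 2, of 19 it tested. limma-voom, which tested 15, also called cox6b1, a gene for a ubiquitous subunit, lower (-0.62, adjusted p = 0.0482). cox6a2 had 0.718, 0.508, 5.11 and 0.247 CPM in lf:YAP, against 9.54, 5.72, 11.4 and 7.14 CPM in WT, a log2 fold change of -2.59 ± 0.63 (adjusted p = 0.014). The lf:YAP counts behind these levels were 2, 2, 12 and 1. lf:YAP replicate 3 stood far above the other 3, and without it the log2 fold change was -4.06 (adjusted p = 3.15e-05). cox8b had 2.15, 1.78, 3.404 and 1.48 CPM in lf:YAP and 10.3, 9.15, 4.47 and 6.04 CPM in WT, a log2 fold change of -1.81 ± 0.37 (adjusted p = 0.0039). In both genes every lf:YAP library lay below every WT library.

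Their sister isoforms were not called. On the log2 scale cox6a1 stood at -0.15 ± 0.23 (adjusted p = 0.685) and cox8a at 0.55 ± 0.32 (adjusted p = 0.243); without WT replicate 1 cox8a was called higher at 1.02 (adjusted p = 0.0148). As a share of the counts on both cox8 rows, cox8b took 14.6%, 13.2%, 26.7% and 10.7% in lf:YAP, against 40.9%, 57.1%, 50% and 52.4% in WT. The cox6a2 share of the cox6a1 and cox6a2 counts was 1.32% to 23.5% in lf:YAP and 25.4% to 45.9% in WT. These shares are of counts, with no allowance for transcript length. The ubiquitous subunit gene cox4i1 had 74.2 ± 17.3 CPM in lf:YAP and 80.9 ± 5.06 CPM in WT (SD, n = 4 each), and cox6b1 narrowly missed the call at -0.60 ± 0.21 (adjusted p = 0.0584).

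Markers of skeletal muscle were examined beside these isoforms. The 10 calls among the 28 tested are 35.7%, against 21.6% of all genes, and the 8 lower ones compare with 10.5% of all genes called lower. The sums given above, of which eno3 made a large part, overlapped between the groups. The highest lf:YAP sum was in replicate 3, where cox6a2 was also highest. The highest WT sum was in replicate 4, where cox6a2 had 7.14 CPM, above WT replicate 2 but below replicates 1 and 3, and cox8b 6.04 CPM, above WT replicate 3 but below replicates 1 and 2. None of the muscle markers was at 0 over the 8 libraries, and of 8 listed heart markers in the table none passed the filter, with sums of 2.47 to 9.33 CPM in lf:YAP and 7.32 to 25.2 CPM in WT. The 5 calls among 14 tested intestine markers are also 35.7%. The part of other tissue in the 2 isoform genes was not tested.

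For complex V, 0 of 17 tested nuclear genes were called by edgeR, DESeq2 or limma-voom, beside 21.6%, 13% and 22.9% of all genes. In edgeR, 0 of the 17 had an unadjusted p under 0.05, beside 34.8% of all genes. The catalytic head genes atp5fa1 and atp5f1b had 167 ± 20.5 and 150.1 ± 15.1 CPM in lf:YAP, against 165 ± 20.2 and 157 ± 14.8 CPM in WT (SD, n = 4 each). Their log2 fold changes of 0.02 and -0.06 had intervals from -0.33 to 0.37 and from -0.39 to 0.27, beside -1.91 to -0.53 for mt-atp6. Other members ranged from -0.47 for the stalk gene atp5pd to 0.35 for atp5mf, with atp5f1c at -0.32 and atp5meb at -0.31. The genes of the ATP synthase inhibitor, atp5if1a and atp5if1b, had 0.16 ± 0.21 and -0.51 ± 0.35, neither called.

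The count of nuclear subunit genes called lower also moved with 1 library. It was 8 without lf:YAP replicate 3 and 6 without that library and WT replicate 4, in place of 3. The number of all genes called lower rose too, to 1311 of 8995 tested and 1186 of 8671 tested, from 875 of 8369. The additional genes called lower without lf:YAP replicate 3 alone were ndufb7 (-0.61), uqcrfs1 (-0.47), cox5aa (-0.49), cox6b1 (-0.67) and cox6b2 (-0.58), at adjusted p-values of 0.0294 to 0.0475, and ndufa10 was then called higher (0.69). With any other single library left out the count of nuclear subunit genes called lower stayed at 3, with 15.2% to 19.2% of all genes called.

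Of 15 tested regulators of mitochondrial biogenesis, 4 were called lower and 3 higher, 46.7% against 21.6% of all genes. ppargc1a, the coactivator PGC-1alpha that drives mitochondrial biogenesis, had 5.74, 11.2, 14.5 and 7.17 CPM in lf:YAP, against 16.4, 24.8, 28.1 and 20.3 CPM in WT, a log2 fold change of -1.23 ± 0.27 (adjusted p = 0.00708). The gene of a partner nuclear receptor, esrra, had 5.38, 5.85, 7.23 and 3.95 CPM in lf:YAP and 14.9, 16.8, 17.1 and 10.2 CPM in WT, a log2 fold change of -1.40 ± 0.25 (adjusted p = 0.00201). In both genes the groups were apart. ppargc1b, the related coactivator, fell to 25.7 ± 3.09 CPM in lf:YAP, against 48.3 ± 9.09 CPM in WT (adjusted p = 0.00289; 0.0751 with total counts alone). The Myc family gene mycb also fell, by 2.21 on the log2 scale, but its call was lost without lf:YAP replicate 2 or 4 (adjusted p up to 0.0687).

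The higher regulators included gabpa, which encodes the DNA-binding subunit of a factor that activates many nuclear respiratory genes. It had 12.2, 12.7, 10.2 and 14.6 CPM in lf:YAP, against 6.87, 3.43, 6.10 and 7.96 CPM in WT, a log2 fold change of 1.02 ± 0.25 (adjusted p = 0.0126). tfe3a, of the TFEB family of lysosomal and mitochondrial regulators, rose by 1.74 ± 0.31, and hcfc1a, a transcriptional cofactor gene, by 0.82 ± 0.22 on the log2 scale. The hcfc1a call was lost on leaving out lf:YAP replicate 2, WT replicate 2 or WT replicate 3 (adjusted p up to 0.0692). nrf1, another activator of respiratory genes, had 0.15 ± 0.24 (adjusted p = 0.71).

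The genes that copy mitochondrial DNA and make and process its RNA were called about as often as other genes in the lower direction. Of 19 tested, 2 were called lower, 10.5%, as of all genes, and 0 higher. At an unadjusted p under 0.05 there were 4 lower and 0 higher, beside 34.8% of all genes. DESeq2 called 1 lower of 27 it tested and limma-voom 2 of 19, and both called 0 higher, beside 13% and 22.9% of all genes called. tfam, which packs mitochondrial DNA, had 8.77 ± 1.57 CPM in lf:YAP and 6.62 ± 0.92 CPM in WT, and the mitochondrial RNA polymerase gene polrmt had 6.54 ± 0.985 CPM in lf:YAP and 6.78 ± 0.48 CPM in WT (SD, n = 4 each; adjusted p = 0.263 and 0.882). trmt10c, a subunit of the enzyme that cuts tRNAs out of the long mitochondrial transcripts, fell to 6.60 ± 0.958 CPM in lf:YAP, against 12.5 ± 3.04 CPM in WT, and its call was lost with total counts alone (adjusted p = 0.103). tfb2m, the initiation factor, fell by 0.62 on the log2 scale, a call lost under 10 of 18 alternatives (adjusted p up to 0.299). Of 22 tested assembly factors with other symbols, 1 was called lower and 0 higher, 4.55% against 21.6% of all genes. The 1 called was cmc2, of complex IV biogenesis (-1.31 ± 0.32). DESeq2 called 2 lower of 42 it tested and limma-voom 2 of 22, both with 0 higher, beside 13% and 22.9% of all genes. At an unadjusted p under 0.05 edgeR had 4 lower and 0 higher, beside 34.8% of all genes.

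**Figure D5:**
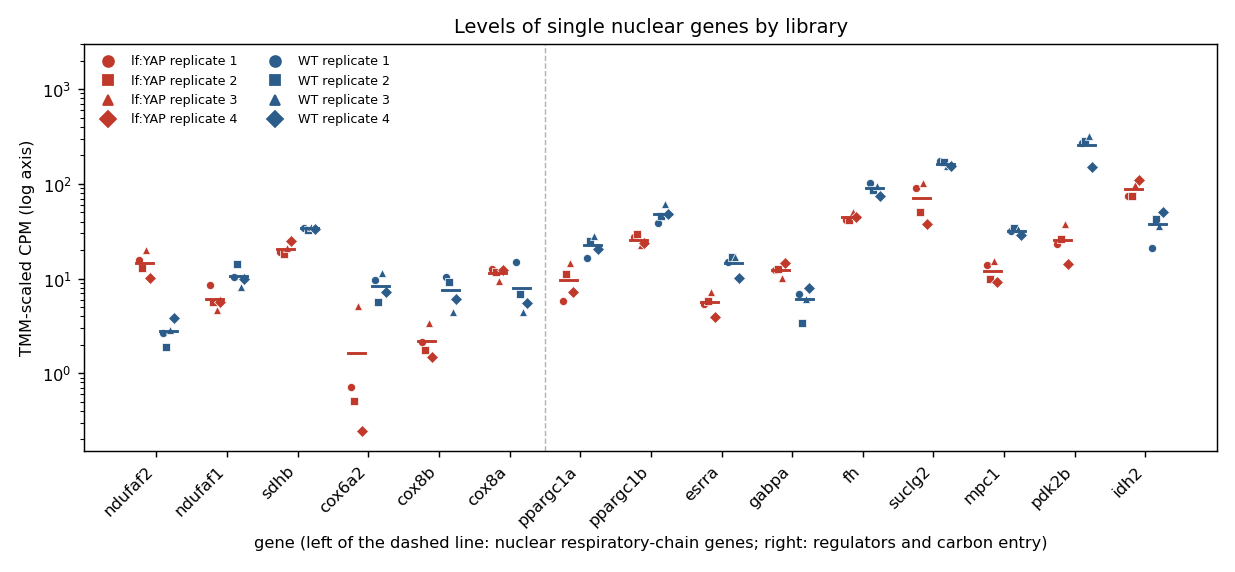
TMM-scaled CPM (log axis) of single nuclear genes in every library, lf:YAP in red left of WT in blue, with bars at the group mean. ndufaf2, gabpa and idh2 lie higher in all lf:YAP libraries, while sdhb, cox6a2, cox8b, ppargc1a, ppargc1b, esrra, fh, suclg2, mpc1 and pdk2b lie lower in all of them.

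Of 28 tested genes of the tricarboxylic acid cycle and pyruvate oxidation, which supply electrons to the chain, 7 were called lower and 1 higher. That is 28.6%, beside 21.6% of all genes. By direction, the 7 lower compare with 10.5% of all genes called lower, and the 1 higher with 11.1% called higher. The list's median was -0.16 on the log2 scale. The 7 include pdk2b, whose product inhibits pyruvate dehydrogenase. The fumarase gene fh had 41.3, 41.2, 50.6 and 44.7 CPM in lf:YAP, against 103, 86.9, 93.9 and 75.2 CPM in WT, a log2 fold change of -1.01 ± 0.16 (adjusted p = 0.000775). suclg2, for a subunit of succinyl-CoA synthetase, fell by 1.22, and mpc1, for the mitochondrial pyruvate carrier, by 1.42 on the log2 scale. The kinase gene pdk2b had 23.3, 26.4, 37.9 and 14.1 CPM in lf:YAP and 271, 281, 321 and 152 CPM in WT, a log2 fold change of -3.34 ± 0.32. In each of these 4 genes all lf:YAP libraries were below all WT libraries. Of the 28 tested, 5 had all lf:YAP libraries below and 2 had all above, beside 11.3% and 12.4% of all genes.

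The one gene of that list called higher was idh2, for the NADP-dependent mitochondrial isocitrate dehydrogenase. It had 89.1 ± 17.3 CPM in lf:YAP and 37.5 ± 12.5 CPM in WT (SD, n = 4 each), and the log2 fold change was 1.24 ± 0.24 (adjusted p = 0.00327). The calls of fh, suclg2, mpc1, pdk2b and idh2 held under all 18 alternatives. Those of the citrate synthase gene cs (-0.59), the 2-oxoglutarate dehydrogenase genes ogdhb (-1.31) and dlst (-0.50) were lost under 10, 7 and 10 of them. When lf:YAP replicate 1, 2 or 4, or else WT replicate 2 or 4, was left out, 4 genes of the list were called lower in place of 7. Of all genes, 15.2% to 19.2% were called in these fits. Among 23 tested glycolytic and hypoxia-response genes, 4 were called higher and 5 lower, 39.1% against 21.6% of all genes.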

How the data were processed

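Total RNA libraries from 4 lf:YAP and 4 WT pools were compared. Per the labels' protocols, libraries came from a strand-specific kit for pico input and were read as 75-base pairs. The build danRer10 and the tools featureCounts 1.6.0, HISAT2 2.1.0, limma 3.40.6 and cutadapt 1.16 are listed, without roles, per the submitters' processing notes. The authors deposited raw whole-number counts per gene and library, which gave all values here unless the authors' table is named. The authors also deposited CPM values (counts scaled to 1000000 per column), a log2 fold change and mean log2 expression, and p-values with adjusted p-values per gene. Of these, only the adjusted p-values were used, to compare calls.

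Rows without a gene name (6518 of 35117) held 0.657% to 2.55% of a library's counts and were left out. The table gives symbols without coordinates, and no genome was used; the order of mitochondrial genes came from RefSeq's gene table of the assembly GRCz12tu.

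The counts went through edgeR 4.0.16 (R 4.3.3): filterByExpr, TMM scaling, a robust quasi-likelihood fit with group as the sole term, and Benjamini-Hochberg adjustment of the 2-sided p-values over all 8369 genes tested. The SE of a log2 fold change is its size over the square root of F. Alternatives were DESeq2 1.42.0, limma-voom 3.58.1, other scalings and filters, a replicate block, summed rows, and leaving out libraries.

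The members and gene lists were chosen with earlier results of these data known. Genes named were all mitochondrial-genome genes, all called members, in each complex the 3 smallest p-values, the highest level and the highest and lowest fold change, symbol pairs ending in a and b with a call, and called members and main regulators of the other mitochondrial lists. Other names and shares (cox6a1, cyc1, atp5f1b, sdhc, ndufaf5, atp5if1a and the genes called without 1 library) were added after their values were seen.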

Additional observations from a re-analysis of the deposited data

Results flagged for a closer look

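In 132 groups of 4 libraries examined, 3 held a library far from the other 3 by Dixon's gap criterion, which chance gives in about 1 of 20 groups. cox6a2 had 5.11 CPM in lf:YAP replicate 3, against 0.247 to 0.718 CPM in the other lf:YAP libraries. ogdhb had 21.7 CPM in lf:YAP replicate 3, against 7.91 to 10.2 CPM in the other lf:YAP libraries. ndufa10 had 6.48 CPM in WT replicate 2, against 9.54 to 10.2 CPM in the other WT libraries. lf:YAP replicate 3 was also the lf:YAP library with most exocrine pancreas and skeletal muscle marker counts and with least yap1.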

How the results depend on the processing

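With total counts alone the median of nuclear subunit genes was 0.13 in place of -0.16, 1 nuclear subunit gene (ndufa10) and 1 mitochondrial-genome gene (mt-nd6) were called higher in place of 0, and cox4i1 (0.13), cycsb (0.0817), sdha (0.037), uqcrc1 (0.12), uqcrc2b (0.0319) and polrmt (0.24) had positive log2 fold changes. With no filter 2855 genes were called in all and 12 mitochondrial-genome genes lower. With the replicate block 1 mitochondrial-genome gene, mt-cyb, was called lower and 1685 genes in all; same-numbered libraries of the 2 groups did not deviate together (correlations of -0.049 to 0.048), so the numbers were not read as pairs. Without WT replicate 4 and lf:YAP replicate 3 together, 26.9% of all genes were called. In that fit 10 mitochondrial-genome and 6 nuclear subunit genes were called lower, and atp5fa1 (-0.063) and uqcrb (-0.16) changed sign. Leaving out 1 library gave 15.2% to 28.2% of all genes called and 4 to 8 genes of the tricarboxylic acid cycle list called lower. It gave 1 to 11 mitochondrial-genome genes called lower, 3 to 8 nuclear subunit genes lower and 0 to 1 higher. It also moved atp5fa1 between -0.0689 and 0.1013, uqcrb between -0.16 and 0.1931 and polrmt between -0.15 and 0.0166; with limma-voom uqcrb was at -0.0056. None of these genes with a changed sign was called under any of the 18 alternatives. The cause of these changes was not tested. The 12 heavy-strand mitochondrial genes stayed negative and mt-nd6 positive under all 18 alternatives. For nuclear subunit genes the 95% interval reached a median of 0.495 on either side of the log2 fold change, the limit set by depth and replicates.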
